A study of Mus musculus with 64 samples.

Results

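Transcript levels of 10 genes of insulin signalling and of the IGF-binding proteins were measured in the hippocampus and the liver of wild-type (WT) and Angelman syndrome (AS) mice given corticosterone (CORT) or vehicle. The genes were taken by their symbols, and the Ensembl identifier of each of the 10 was found in both count tables, which list 55414 genes for the acute and 55573 for the continuous cohort. AS mice carry a maternal Ube3a allele without exon 5 and an intact paternal allele (Ube3a m-/p+), which is silenced in neurons, and WT mice are their littermates. All were male F1 hybrids of C57BL/6J and 129sv parents, 10 to 18 weeks old. In the acute cohort, 24 mice, 6 in each of 4 groups, received 1 injection of 3 mg/kg CORT or vehicle and the left hippocampus was collected 3 h later. In the continuous cohort, 20 mice, 5 in each group, carried a pellet of 20 mg CORT or a cholesterol vehicle pellet for 5 days, after which left hippocampus and liver were collected. The hippocampal libraries H9 (AS vehicle) and H13 (WT vehicle) were treated as technical outliers and left out following the original analysis. This leaves 4 hippocampal vehicle libraries of each genotype in the continuous cohort.

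Insulin binds its receptor Insr, which phosphorylates the docking proteins Irs1 and Irs2. These recruit phosphoinositide 3-kinase through its regulatory subunit p85alpha, encoded by Pik3r1, and the kinase Akt that follows keeps the transcription factors Foxo1 and Foxo3 out of the nucleus. In the fasted liver the FOXO factors are nuclear and drive genes of glucose production, and glucocorticoids are known to oppose the action of insulin in this tissue. The IGF-binding proteins carry insulin-like growth factors in blood and tissue fluid and limit their access to receptors: Igfbp1 and Igfbp2 come largely from the liver and Igfbp1 is a classical gene repressed by insulin, Igfbp3 is the main carrier in blood and is made mostly by non-parenchymal liver cells, and Igfbp4 mainly inhibits IGF action.

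On mm10 with GENCODE M21, Insr (ENSMUSG00000005534) lies on chromosome 8 from 3122061 to 3279617, Irs1 (ENSMUSG00000055980) on chromosome 1 from 82233101 to 82291416, Irs2 (ENSMUSG00000038894) on chromosome 8 from 10984681 to 11008458 and Pik3r1 (ENSMUSG00000041417) on chromosome 13 from 101680563 to 101768217. Foxo1 (ENSMUSG00000044167) lies on chromosome 3 from 52268336 to 52353221 and Foxo3 (ENSMUSG00000048756) on chromosome 10 from 42181841 to 42276755. Of the binding proteins, Igfbp2 (ENSMUSG00000039323) lies on chromosome 1 from 72824503 to 72852474 and the other 3 on chromosome 11: Igfbp1 (ENSMUSG00000020429) from 7197782 to 7202546, Igfbp3 (ENSMUSG00000020427) next to it on the opposite strand from 7206086 to 7213923, and Igfbp4 (ENSMUSG00000017493) from 99041244 to 99054392. Values are counts over all exons of a gene.

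Sequence upstream of the genes is shown next because 4 of the members described below carry a letter string of known response elements there. RefSeq windows on GRCm38.p6, from 250 bases before to 50 bases after an annotated gene start, were found for 9 of the 10 members, 11 windows in all, and for Insr none was at hand. The windows were searched on both strands for CAAAACAA, a core of the insulin response element bound by FOXO factors, for the FOXO core GTAAACA, for TGTTCT, the half-site of the glucocorticoid receptor (GR), and for the GR palindrome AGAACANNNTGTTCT, whose right end contains the half-site. Capitals mark the match.

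Igfbp1, chr11:7197537-7197836, plus strand: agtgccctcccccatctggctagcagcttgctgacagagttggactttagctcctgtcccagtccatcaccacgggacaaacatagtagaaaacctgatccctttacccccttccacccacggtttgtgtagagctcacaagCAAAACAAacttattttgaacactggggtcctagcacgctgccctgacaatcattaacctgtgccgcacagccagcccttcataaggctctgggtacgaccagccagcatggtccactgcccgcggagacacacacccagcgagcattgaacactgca

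Igfbp2, chr1:72824230-72824529, plus strand: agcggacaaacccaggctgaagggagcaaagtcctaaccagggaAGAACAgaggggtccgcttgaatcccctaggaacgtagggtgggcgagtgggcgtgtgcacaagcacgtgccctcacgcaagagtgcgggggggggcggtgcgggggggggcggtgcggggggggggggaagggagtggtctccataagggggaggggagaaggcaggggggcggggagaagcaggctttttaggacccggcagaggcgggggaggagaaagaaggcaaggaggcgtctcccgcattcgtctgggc

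Irs2, chr8:11008880-11009179, minus strand: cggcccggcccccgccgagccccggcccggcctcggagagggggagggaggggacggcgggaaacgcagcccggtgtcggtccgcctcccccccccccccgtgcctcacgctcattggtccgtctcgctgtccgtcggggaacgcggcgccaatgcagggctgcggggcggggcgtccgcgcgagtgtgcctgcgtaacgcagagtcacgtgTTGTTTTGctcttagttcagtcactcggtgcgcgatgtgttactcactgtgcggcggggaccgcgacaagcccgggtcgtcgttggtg

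The window of Igfbp1 holds the insulin response core at position -108 from the gene start, and Irs2 holds it on the opposite strand at -38, as does Irs1 at -33. Positions are counted from the RefSeq start of each window, which differs from the GENCODE start. The window of Irs2 lies wholly upstream of the GENCODE span given above. Of 32851 mouse windows of this length, 2.51% hold this core. Igfbp2 holds a GR half-site on the opposite strand at -206, which 19% of the windows do. The FOXO core, found in 3.65% of the windows, and the GR palindrome, found in 0.00913%, are in none of the members' windows, and the windows of Foxo1, Foxo3, Pik3r1, Igfbp3 and Igfbp4 hold none of the 4 strings. These matches are a description of letters within 300 bases and say nothing of binding.

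Libraries held 18612550 to 21783009 counts on genes, so that a count of 3, taken as the floor, corresponds to 0.138 to 0.161 CPM (counts scaled to a common library size after TMM normalization); this floor covers counting error only. Hepatocyte markers summed to 87290 to 133800 CPM in liver, and neuronal markers to 11270 to 16990 CPM in hippocampus. Fkbp5, a classical GR target, rose with CORT in each tissue, cohort and genotype, from 0.58 log2 in the continuous hippocampus of WT mice to 4.14 in the liver of AS mice. Of the other genes checked for the treatment, Tsc22d3 also rose in each. Sgk1 passed the threshold only in the continuous hippocampus, in both genotypes, and Per1 in none of these comparisons. Ube3a was lower in the liver of AS than of WT mice, by -0.55 log2 with vehicle and -0.48 with CORT (edgeR adjusted p = 0.0191 and 0.0133), and ranged from 52.54 to 97.98 CPM over both genotypes in hippocampus, where a count over the whole gene also takes in the exons that the deletion spares. P-values measure the spread between these libraries.

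Levels of the members were first compared between genes within each tissue of WT vehicle mice, in CPM per kb of exon, the scale on which genes of different length can be compared. In liver, Igfbp4 at 324 ± 101 CPM per kb and Igfbp2 at 278 ± 98.6 (SD, n = 5) stood above all other members, Igfbp1 followed at 21.4 ± 15.3, and the receptor, docking proteins, Pik3r1, Igfbp3 and both FOXO genes lay between 2.53 (Irs1) and 8.26 (Pik3r1). The ranges of Igfbp4 and Igfbp2 overlapped, as did those of Pik3r1, Igfbp3, Insr and Foxo3. In the continuous hippocampus, Igfbp2 at 19.9 ± 5.68, Igfbp4 at 18.1 ± 6 and Irs2 at 14.9 ± 0.813 (SD, n = 4) were the 3 highest, with overlapping ranges, and Irs1 at 2.17 ± 0.173 the lowest apart from Igfbp1. In the acute hippocampus, a separate cohort, the highest were Irs2 at 21.6 ± 1.01 and Igfbp4 at 21.2 ± 2.87, followed by Igfbp2 at 14.6 ± 3.06 (SD, n = 6). Igfbp1 had 41 to 2083 counts in each liver library, but 0 to 4 counts in the hippocampal ones, or at most 0.185 CPM, where only 1 library exceeded 3 counts; it did not pass the filter there and no fold is given for it.

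**Figure D1:**
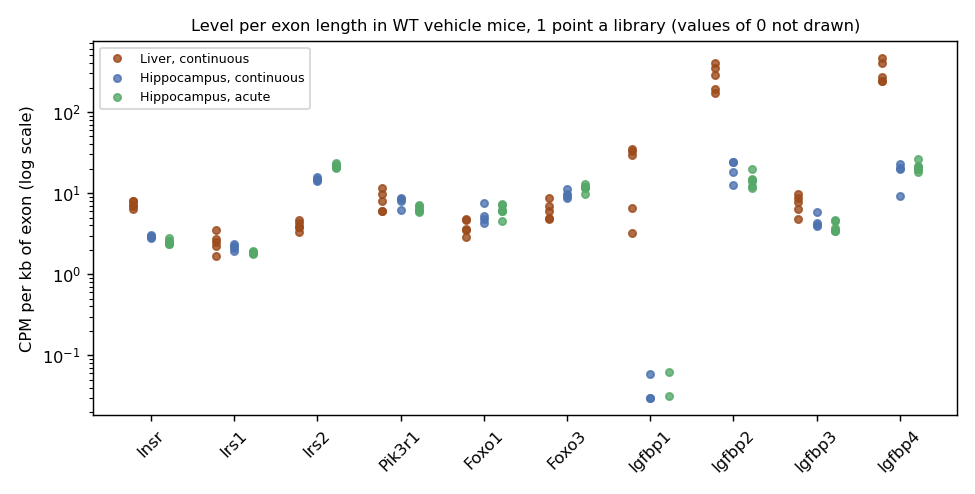
Level of each member per kb of exon, in CPM on a log axis, in WT vehicle mice, with 1 point for each library (5 liver, 4 continuous hippocampus, 6 acute hippocampus). Igfbp4 and Igfbp2 in liver sit far above the other members, and Igfbp1 is below 0.1 in both hippocampal sets.

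Of the 10 members, 9 differed between liver and hippocampus in WT vehicle mice (adjusted p under 0.05 in edgeR's quasi-likelihood test over all genes), where 89.6% of all 15937 genes tested did. The receptor Insr was higher in liver by 2.22 ± 0.0935 log2 (estimate ± SE), Irs1 by 1.11 ± 0.136, Pik3r1 by 0.98 ± 0.194, Foxo1 by 0.42 ± 0.141, Igfbp3 by 1.63 ± 0.191, Igfbp2 by 4.71 ± 0.289 and Igfbp4 by 5.06 ± 0.258. Igfbp1 was the eighth member higher in liver, with 97 to 1084 counts beside 0 to 2 in hippocampus. Irs2 was the 1 member that was lower in liver in this fit, 2.01-fold (adjusted p = 0.000112), so that the docking proteins differed between the tissues in opposite directions. The fit scaled both tissues together, whereas CPM values were scaled within each tissue. In mean CPM, Foxo1 (33.88 in liver, 47.34 in hippocampus), Foxo3 (47.65 and 73.71) and Irs2 (25.18 and 94.04) were all lower in liver. The direction of Foxo1 and Foxo3 and the size of all these folds thus depend on the scaling. The call of Foxo1 was lost without the libraries numbered 1, L1 and H1 (lowest value 0.27, adjusted p = 0.112). Foxo3 did not pass the threshold (0.27, adjusted p = 0.0616), but it did in the fit with a block for equal library numbers, given below. The median over all genes was -0.157, and in bulk tissue fewer cells of a type and less RNA per cell cannot be told apart.

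**Figure D2:**
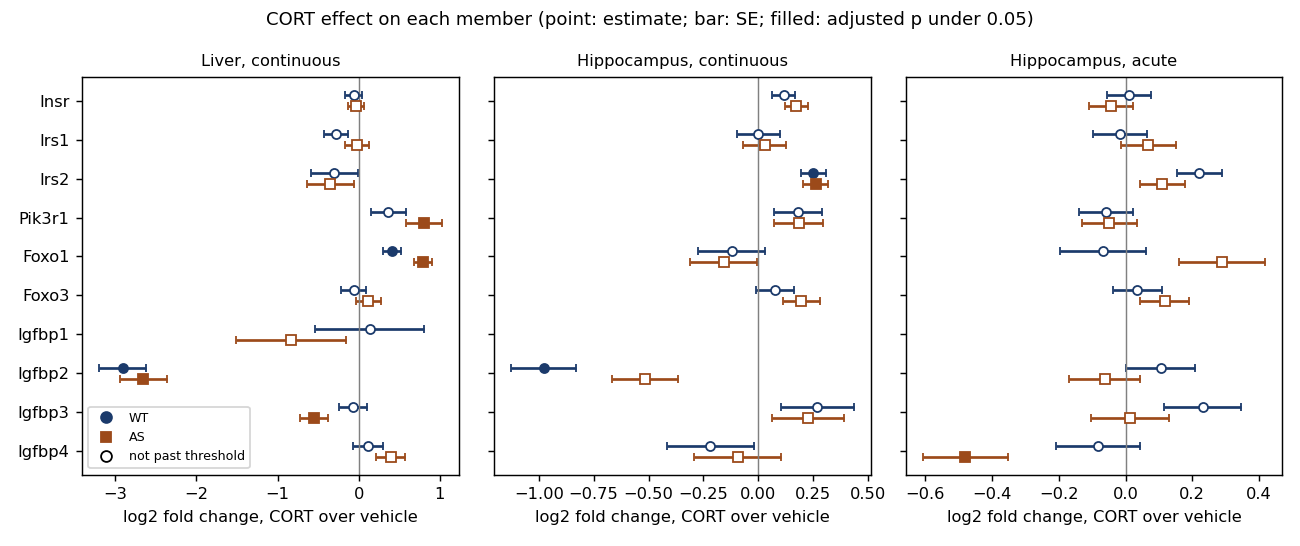
CORT effect on each member in log2 units, CORT over vehicle, in WT mice (circles) and AS mice (squares), with bars of 1 SE; filled symbols passed an adjusted p of 0.05. Liver Igfbp2 stands alone at -2.91 in WT and -2.65 in AS mice, and Igfbp1 is not drawn in hippocampus because it was not tested; each panel has its own scale.

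Continuous CORT lowered Igfbp2 in the liver of both genotypes, to at most 94.25 CPM in every library. Foxo1 rose in both, Pik3r1 rose and Igfbp3 fell in AS mice, and the receptor, both docking proteins, Foxo3, Igfbp1 and Igfbp4 did not pass the threshold in either genotype. In WT livers 2 of the 10 members were called, beside 18.6% of all 12273 genes tested, and in AS livers 4 of 10, beside 27.5%. The median over the members was -0.0625 log2 in WT and -0.0284 in AS mice, beside -0.00473 and -0.00321 over all genes.

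Before these results, 1 property of the libraries has to be given. Dbp and Arntl, clock genes that peak at opposite times of day, split the livers into 6 libraries with 60.0 to 237 CPM of Dbp and 0.289 to 5.03 CPM of Arntl, and 14 libraries with 0.653 to 4.21 CPM of Dbp and 26.4 to 40.6 CPM of Arntl. The 6 are L1 and L4 of WT vehicle, L3 of WT CORT, L2 of AS vehicle, and L7 and L8 of AS CORT mice, and the hippocampal libraries with the same 6 numbers had the highest Dbp of that tissue (53.8 to 85.6 CPM, beside 36.1 to 50.8 in the other 12). The time of collection of each mouse is not given in the sources used here. The split was noticed after the data were seen, no test between the 2 sets of libraries was made, and fits with a term for the 6 libraries, or without them, are given below for most members.

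Igfbp2, a binding protein secreted by hepatocytes, was at 521, 743.4, 313.4, 636.4 and 356.5 CPM in the WT vehicle livers and at 55.9, 70.74, 94.25, 54.31 and 67.36 CPM in the WT CORT livers. In AS mice it was at 389.5, 278.3, 890.9, 314.6 and 426.9 CPM with vehicle and at 74.15, 71.38, 77.11, 69.46 and 73.71 CPM with CORT. Every CORT library was below every vehicle library in both genotypes. The vehicle livers spread widely, with L11 of the AS mice highest, while the CORT livers were close to each other, most of all those of AS mice, at 73.16 ± 2.9 CPM (SD, n = 5). The fall was -2.91 ± 0.289 log2 in WT mice (7.5-fold, edgeR adjusted p = 6.5e-07) and -2.65 ± 0.286 in AS mice (6.29-fold, adjusted p = 1.09e-06). By the size of the change, Igfbp2 was 17th of 1215 genes lowered in WT livers and 41st of 1836 in AS livers. The genotype by CORT interaction was 0.26 ± 0.381 (adjusted p = 0.856). Without the 6 libraries of high Dbp the fall was -2.60 for WT (adjusted p = 1e-04) and -2.70 for AS mice (adjusted p = 9.66e-05).

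**Figure D3:**
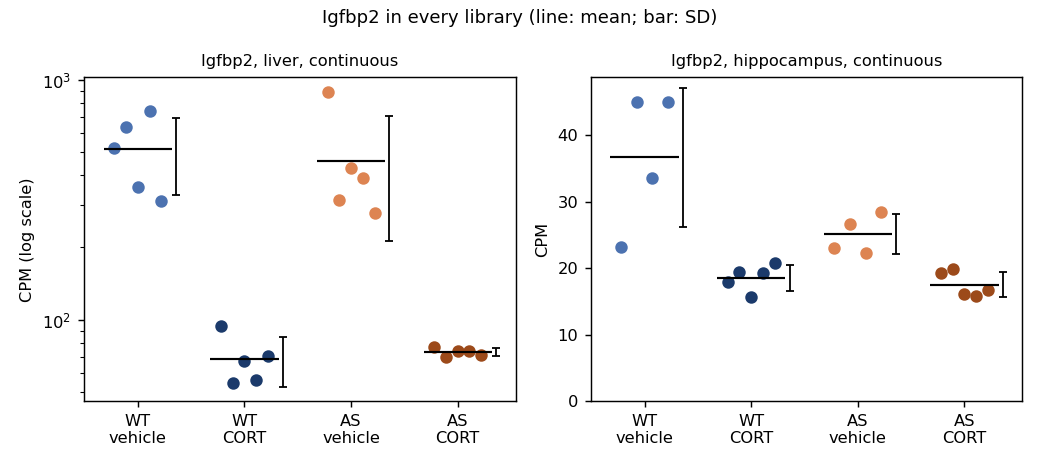
Igfbp2 in every library of the continuous cohort in CPM, in liver on a log axis and in hippocampus on a linear one, with the mean (line) and SD (bar) of each group. In both tissues each CORT library lies below each vehicle library of its genotype; in liver all 10 CORT libraries are at 54.31 to 94.25 CPM and the vehicle ones at 278.3 to 890.9 CPM.

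The 3 genes whose log2 CPM followed Igfbp2 most closely over the 20 livers were Adgrf1 (Pearson r = 0.964), Gbp3 (r = 0.96) and Pzp (r = 0.958). All of them share the same libraries and the same treatment difference with Igfbp2, so that these values are a description without a test.

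Foxo1, the FOXO factor best known for driving glucose production in hepatocytes, was at 40.9, 41.33, 30.71, 31.74 and 24.73 CPM in the WT vehicle livers and at 45.65, 43.46, 46.81, 50.52 and 39.45 CPM with CORT. The AS livers held 31.75, 26.61, 31.69, 31.42 and 33.16 CPM with vehicle and 50.69, 54.53, 54.35, 50.86 and 56.49 CPM with CORT. The AS groups were far apart, whereas in WT mice L20 with CORT lay below L1 and L4 with vehicle, which are the libraries of high Dbp in that group. Foxo1 rose by 0.41 ± 0.11 log2 in WT mice (1.33-fold, edgeR adjusted p = 0.0108) and by 0.79 ± 0.11 in AS mice (1.73-fold, adjusted p = 2.31e-05). The difference between the genotypes did not pass (interaction 0.37, 95% interval 0.0687 to 0.676, edgeR adjusted p = 0.553 over all genes). Without the 6 libraries of high Dbp the rise was 0.63 for WT (adjusted p = 0.000676) and 0.81 for AS mice (adjusted p = 4.48e-05). Fitted on the WT groups alone, the WT rise did not pass (adjusted p = 0.0558). Gm15889 (r = 0.965), the metallothionein gene Mt1 (r = 0.935) and Sall1 (r = 0.925) followed Foxo1 most closely over the 20 livers. In GENCODE M21 the span of Foxo1 overlaps the genes Gm20402 and Gm38034, and the like holds for Insr with Gm16180 and Vmn2r-ps88, Irs1 with Gm9747, Irs2 with 9530052E02Rik and Pik3r1 with Gm36638. Gm38034 and Gm36638 lie on the strand of the member and the others on the opposite strand. Whether counting used strand is not given, and reads of such pairs could not be told apart here.

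Foxo3, the second FOXO factor measured, ranged from 36.73 to 65.4 CPM over the livers and its groups overlapped. The 6 libraries of high Dbp were all above the other 14, at 52.24 to 65.4 against 36.73 to 46.19 CPM with vehicle and 47.18 to 56 against 37.35 to 46.29 CPM with CORT. It differed by -0.06 log2 in WT and 0.12 in AS mice (95% intervals -0.359 to 0.234 and -0.178 to 0.415, adjusted p = 0.832 and 0.604), and without the 6 libraries by 0.10 and 0.16 (adjusted p = 0.522 and 0.254). Whether the CORT effects of Foxo1 and Foxo3 differ from each other was not tested.

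Pik3r1, the regulatory subunit that couples the docking proteins to the kinase, was at 99.28, 115.5, 61.33, 60.33 and 79.58 CPM in the WT vehicle livers and at 126.9, 101.7, 103, 92.49 and 111.6 CPM with CORT. AS vehicle livers were at 119.2, 60.85, 48.76, 50.96 and 63.99 CPM and AS CORT livers at 140, 110, 92.95, 127.3 and 130.8 CPM. The vehicle libraries L1, L4 and L2, all of high Dbp, were within the range of the CORT libraries, and the other 7 vehicle libraries were below all 10 of these. Pik3r1 rose by 0.81 ± 0.217 log2 in AS mice (1.75-fold, edgeR adjusted p = 0.00886). The WT value was 0.36 ± 0.215 (adjusted p = 0.269, not called), and the interaction was 0.44 (adjusted p = 0.708). With a term for the 6 libraries of high Dbp it was 0.50 ± 0.152 for WT mice (adjusted p = 0.0191) and 0.77 for AS mice (adjusted p = 0.000543). Without those libraries it was 0.61 (adjusted p = 0.00521) and 1.06 (adjusted p = 3.99e-05), so that the WT value passed the threshold in both fits.

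Igfbp1, the binding protein that insulin represses, was at 9.913, 4.877, 53.27, 44.56 and 50.57 CPM in the WT vehicle livers, at 12.92, 38.99, 25.94, 50.83 and 50.83 CPM with CORT, at 1.972, 62, 32.13, 24.84 and 101 CPM in the AS vehicle livers and at 17.75, 22.44, 40.86, 13.4 and 29.9 CPM with CORT. Within each of the 4 liver groups it had the highest CV of the members, from 43.5% in AS CORT to 86.1% in AS vehicle livers. Over the 20 libraries its CV was 68.4%, beside 92.1% for Igfbp2, whose value takes in the difference between vehicle and CORT livers. The highest library of Igfbp1 was at 51.2 times the lowest. The 3 vehicle livers of high Dbp were at 1.97 to 9.91 CPM and the other 7 at 24.8 to 101 CPM, whereas with CORT the 2 sets overlapped (12.9 to 22.4 and 13.4 to 50.8 CPM). The CORT effect in WT mice was 0.14 log2 (95% interval -1.18 to 1.46, adjusted p = 0.921), an interval that leaves room for a change of more than 2-fold either way. For AS mice it was -0.83 (95% interval -2.16 to 0.495, adjusted p = 0.391). With a term for the 6 libraries of high Dbp the effects were 0.03 and -0.06 (adjusted p = 0.972 and 0.952), and without them -0.25 and -0.97 (adjusted p = 0.722 and 0.108).

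Igfbp4, the member with the highest mean level per kb in liver, was at 1790, 2024, 1070, 1203 and 1062 CPM in the WT vehicle livers and at 1828, 1521, 1471, 1475 and 1447 CPM with CORT. Livers of AS mice were at 1862, 1081, 1243, 1109 and 1070 CPM with vehicle and at 1958, 1680, 1359, 1545 and 1822 CPM with CORT. As for Pik3r1, the vehicle libraries L1, L4 and L2 were high, at 1790 to 2024 CPM, and the other 7 were at 1062 to 1243 CPM, below all CORT libraries. The CORT effect was 0.11 log2 for WT (adjusted p = 0.729) and 0.39 for AS mice (adjusted p = 0.114, called without L2). With a term for the 6 libraries it was 0.26 (adjusted p = 0.0817) and 0.33 (adjusted p = 0.0216), and without them 0.41 (adjusted p = 0.0074) and 0.48 (adjusted p = 0.00167).

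**Figure D4:**
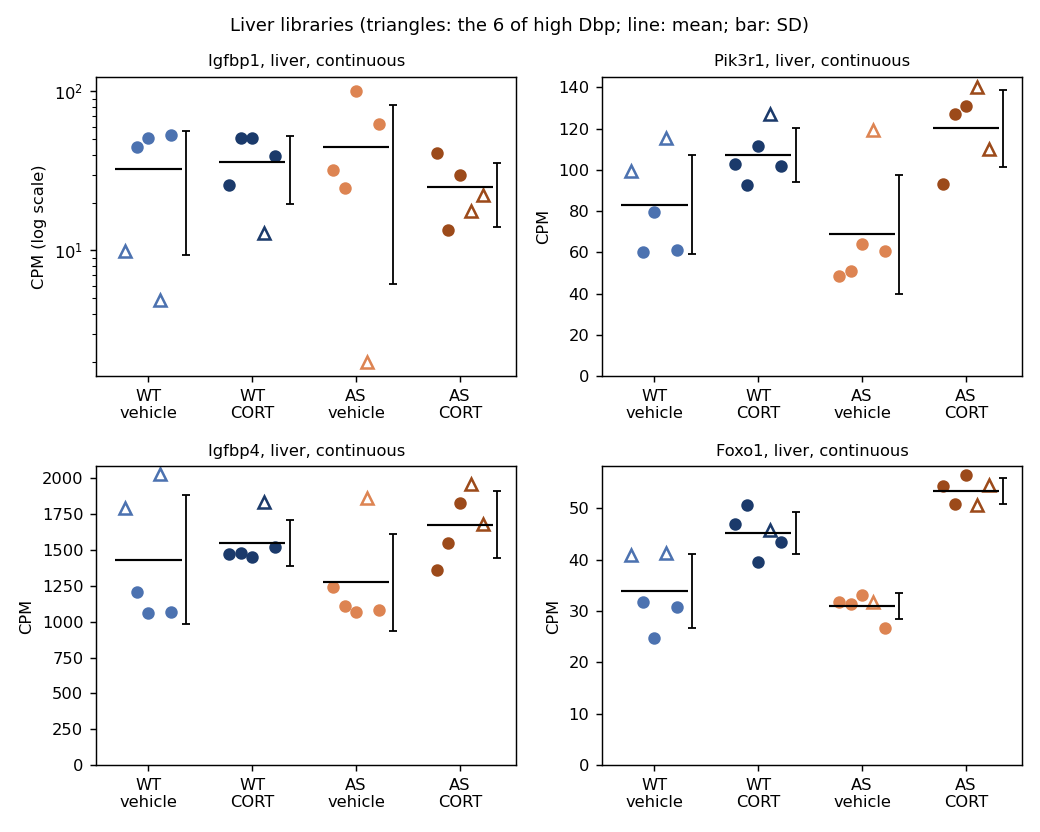
Igfbp1 (log axis), Pik3r1, Igfbp4 and Foxo1 in every liver library in CPM, by group, with the mean (line) and SD (bar); triangles mark the 6 libraries of high Dbp and circles the other 14. Among vehicle livers the triangles are the lowest Igfbp1 values (1.97 to 9.91 CPM) and the highest of Pik3r1 (99.3 to 119 CPM) and Igfbp4 (1790 to 2024 CPM).

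Igfbp3, the main IGF carrier of blood, was at 34.54, 28.77, 24.55, 37.66 and 37.23 CPM in the AS vehicle livers and at 27.86, 25.17, 20.9, 18.7 and 18.4 CPM in the AS CORT livers. WT livers were at 15.06, 20.01, 30.52, 27.06 and 24.63 CPM with vehicle and at 26, 22.09, 16.67, 24.67 and 22.04 CPM with CORT. The AS groups overlapped through L11, and the WT groups lay within one range. Igfbp3 fell in AS mice by -0.55 ± 0.173 log2 (1.47-fold, edgeR adjusted p = 0.0225) and was at -0.07 in WT mice (95% interval -0.413 to 0.268), and the difference between the genotypes did not pass (interaction -0.48, adjusted p = 0.64). Without the 6 libraries of high Dbp Igfbp3 was at -0.36 for WT (adjusted p = 0.109) and -0.73 for AS mice (adjusted p = 0.00262), and the interaction was -0.37 (adjusted p = 0.809). The AS call was lost when L14, L19, L16 or L18 was left out, with adjusted p up to 0.0626 and values down to -0.488. Markers of other cells also differed between these livers. The 4 Kupffer cell markers, all detected, summed to 144.5 to 203.2 CPM in AS vehicle and 55.75 to 82.16 CPM in AS CORT livers, and to 109.4 to 148.3 and 53.89 to 81.38 CPM in WT livers. The 3 blood markers summed to 231.9 to 438.1 CPM in AS vehicle and 115.3 to 175.8 CPM in AS CORT livers, and to 323.3 to 521.5 and 217.9 to 300.7 CPM in WT livers. The 7 markers of meninges and fibroblasts, 6 of them above 1 CPM, went the other way, from 329.3 to 412 CPM to 444.4 to 476.7 CPM in AS livers and from 302.9 to 400.1 CPM to 443.6 to 510.1 CPM in WT livers. These 3 lists did not overlap between vehicle and CORT in either genotype. The 4 stellate cell markers did, at 199.8 to 251.2 and 177.8 to 201.2 CPM in AS livers (medians 229.8 and 185.3) and 159.8 to 232.9 and 188.9 to 223.2 CPM in WT livers (medians 199.2 and 217.2). So did the 3 markers of liver endothelium, at 89.19 to 119 and 78.48 to 101.4 CPM in AS and 74.41 to 119.6 and 70.17 to 115.2 CPM in WT livers. The part of these cells in the Igfbp3 values was not tested.

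Insr, at 79.22 to 119.7 CPM in liver, and the docking proteins Irs1, at 15.44 to 32.32 CPM, and Irs2, at 10.7 to 44.94 CPM, had overlapping groups in both genotypes. Insr differed by -0.06 log2 in WT and -0.04 in AS mice, with the narrowest intervals of the members (-0.259 to 0.134 and -0.234 to 0.159). Irs1 was at -0.28 and -0.02 (adjusted p = 0.21 and 0.943), and without the libraries of high Dbp at -0.44 in WT mice (adjusted p = 0.0411). Irs2 was at -0.30 and -0.35 (adjusted p = 0.528 and 0.394), with lower limits of -0.865 and -0.913. With CORT it was at 10.7 to 17.33 CPM in the livers of high Dbp and 17.57 to 32.1 CPM in the others, and with vehicle at 11.74 to 29.69 and 23.42 to 44.94 CPM. A term for high Dbp gave Irs2 values of -0.50 and -0.20 (adjusted p = 0.129 and 0.551), and the fit without the 6 libraries -0.13 and -0.31 (adjusted p = 0.728 and 0.332).

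Between the genotypes, none of the 10 members was called by edgeR in liver, with vehicle (0.0163% of all genes called), with CORT (0.277%) or in the interaction (0% called). In each of the 3 tests 1 member had an unadjusted p under 0.05, beside 1270, 1018 and 995 of all 12273 genes. The nearest were Igfbp3 with vehicle, higher in AS mice by 0.47 log2 (adjusted p = 0.342), and Foxo1 with CORT, higher by 0.24 (adjusted p = 0.561). These values do not show that the genotypes are alike, since the 95% interval of Igfbp2 with vehicle runs from -0.686 to 0.365 and that of Igfbp1 from -0.874 to 1.76.

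In the continuous hippocampus CORT raised Irs2 in both genotypes and lowered Igfbp2 in WT mice, and no other member of the 9 tested was called. These are 2 of 9 members in WT mice, beside 2.92% of all 14949 genes tested, and 1 of 9 in AS mice, beside 3.77%. The medians over the members were 0.0756 and 0.172 log2, beside 0.00338 and -0.00267 over all genes.

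Irs2, the docking protein that was also the most abundant of the signalling members in hippocampus, was at 93.82, 101.3, 91.39 and 89.64 CPM in WT vehicle and at 102.5, 115.3, 109.4, 113.8 and 118.4 CPM in WT CORT mice. The AS hippocampi were at 97.98, 80.79, 80.86 and 85.81 CPM with vehicle and at 107.3, 103.5, 102, 103.7 and 100.5 CPM with CORT. All CORT libraries were above all vehicle libraries of their genotype. The rise was 0.25 ± 0.0569 log2 in WT (1.19-fold, edgeR adjusted p = 0.02) and 0.26 ± 0.0571 in AS mice (1.2-fold, adjusted p = 0.0116), and the interaction had a 95% interval of -0.148 to 0.167. The WT call was lost when H6, H17 or H20 was left out and the AS call when H11 was. With H9 and H13 in the fit neither value passed (0.35, adjusted p = 0.122, and 0.16, adjusted p = 0.586). H9, an AS vehicle library, was at 117.9 CPM and H13, a WT vehicle library, at 62.84 CPM.

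Igfbp2, which in the brain is made by astrocytes, choroid plexus and meninges, was at 23.16, 33.6, 44.96 and 44.98 CPM in WT vehicle and at 19.27, 20.78, 17.89, 19.47 and 15.62 CPM in WT CORT hippocampi. In AS hippocampi it was at 28.54, 23.05, 26.66 and 22.32 CPM with vehicle and at 15.83, 16.78, 19.24, 19.88 and 16.09 CPM with CORT. Groups did not overlap in either genotype, and the WT vehicle libraries H6 and H17 were the highest. The fall was -0.98 ± 0.149 log2 in WT mice (1.97-fold, edgeR adjusted p = 0.000774). The AS value was -0.52 ± 0.151 (1.43-fold, edgeR adjusted p = 0.0656), which was not called here but passed in DESeq2 and without H1. The interaction was 0.46 (95% interval 0.0435 to 0.877, edgeR adjusted p = 1).

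Markers of other cells differed between these libraries. The 8 choroid plexus markers, all detected, summed to 77.51, 85.55, 1279 and 2908 CPM in the WT vehicle libraries H1, H4, H6 and H17, to 36.51 to 128.8 CPM in WT CORT, 86.4 to 331.1 CPM in AS vehicle and 46.37 to 510.8 CPM in AS CORT libraries. Astrocyte markers, all 5 detected, summed to 1349 to 1522 CPM in WT vehicle and 1216 to 1325 CPM in AS vehicle, above the 971.1 to 1145 and 989.1 to 1161 CPM with CORT. The 5 mural cell markers, all detected, summed to 116.4 to 134.9 CPM in WT vehicle and 111.9 to 132.7 CPM in AS vehicle, above the 90.05 to 103.6 and 82.41 to 108.1 CPM with CORT. The 4 markers of Kupffer cells, which are macrophages of the liver, summed to 5.208 to 6.858 and 5.096 to 6.689 CPM with vehicle, above the 3.383 to 4.772 and 3.336 to 4.915 CPM with CORT. Only 1 of these markers was above 1 CPM, and Vsig4 and Cd5l had no counts in any of these libraries. The 7 markers of meninges and fibroblasts overlapped between groups, at 31.79 to 57.48 CPM in WT vehicle (median 48.94) and 22.39 to 55.27 CPM in WT CORT libraries (median 30.39), and at 27 to 46.91 CPM (median 33.19) and 22.91 to 36.82 CPM (median 26.26) in AS mice. The 3 blood markers were at 35.47 to 51.25 CPM in WT vehicle and higher, at 66.3 to 164.3 CPM, in WT CORT libraries, and at 45.77 to 100.4 and 32.23 to 145.5 CPM in AS mice. The part of astrocytes, mural cells, macrophages, meninges and blood in the values of Igfbp2 and Irs2 was not tested. With the choroid plexus sum as a covariate, added after the data were seen, Igfbp2 was at -0.68 log2 for WT (adjusted p = 0.00983) and -0.47 for AS mice (adjusted p = 0.0259). Without H6 and H17 it was at -0.61 (adjusted p = 0.0379) and -0.51 (adjusted p = 0.0149). The rise of Irs2 in WT mice was 0.24 (adjusted p = 0.0765) and 0.20 (adjusted p = 0.217) in these 2 fits. With all 20 libraries Igfbp2 was at -1.79 for WT (adjusted p = 0.0243) and -0.65 for AS mice (adjusted p = 0.509), where H13 was at 177.1 CPM.

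Among the other members, Insr was at 0.12 log2 in WT and 0.17 in AS mice (adjusted p = 0.283 and 0.0784), Pik3r1 at 0.18 in both (adjusted p = 0.484 and 0.486), and Igfbp3 at 0.27 and 0.23 (95% intervals -0.0594 to 0.593 and -0.0963 to 0.549), none of them called. Foxo1 was at -0.12 and -0.16 (adjusted p = 0.782 and 0.713), Foxo3 at 0.08 and 0.20 (adjusted p = 0.756 and 0.272), Igfbp4 at -0.22 and -0.09, and Irs1 within 0.03 of no change. Their groups overlapped except those of Insr in AS mice, at 33.68 to 39.63 CPM with vehicle and 40.34 to 45 CPM with CORT.

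Between genotypes none of the 9 members was called by edgeR in the continuous hippocampus, with vehicle (0.0134% of all genes), with CORT (0.0401%) or in the interaction (0%). At an unadjusted p under 0.05 there were 1, 2 and 1 members in these tests, beside 1098, 1523 and 561 of all 14949 genes. Igfbp2 with vehicle was at -0.54 log2 in AS against WT mice (adjusted p = 0.454) and, in a fit without the 6 libraries of high Dbp, at -0.905 (adjusted p = 0.0178). The only WT vehicle libraries left in that fit are H6 and H17, those of high choroid plexus markers, and with the choroid plexus covariate the value was -0.37 (adjusted p = 0.412).

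Liver and hippocampus came from the same cohort, so their CORT effects were compared directly, averaged over the genotypes. Foxo1, Igfbp2 and Igfbp3 differed, 3 of 10 members beside 19.9% of all genes. The CORT effect in liver minus that in hippocampus was 0.77 ± 0.136 log2 for Foxo1 (edgeR adjusted p = 7.31e-05), -2.01 ± 0.241 for Igfbp2 (adjusted p = 1.03e-07) and -0.53 ± 0.179 for Igfbp3 (adjusted p = 0.0317). Foxo1 rose in the liver of both genotypes and was at -0.12 and -0.16 in hippocampus, whereas Igfbp2 had values below 0 in both tissues and lower ones in liver. Irs2 (-0.55, adjusted p = 0.075), Pik3r1 (0.43, adjusted p = 0.1) and Igfbp4 (0.44, adjusted p = 0.131) did not pass, but all of them did, together with Foxo1, Igfbp2 and Igfbp3, in the fit without the libraries of high Dbp in both tissues. The difference of Igfbp3 was lost when L5, L10, L14, L17, L18 or L19 was left out together with the hippocampal library of that number.

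In the acute hippocampus, 3 h after the injection, edgeR called none of the 9 members tested in WT mice, where 1.48% of all 14611 genes tested were called, and Igfbp4 was the 1 member called in AS mice, where 17.9% were. In WT mice 1 member, Irs2, had an unadjusted p under 0.05, beside 1558 of all genes. Igfbp4 was at 80.36, 91.18 and 117.2 CPM (lowest, median and highest of 6) in WT vehicle and at 62.9, 92.74 and 103.2 CPM in WT CORT mice. AS mice were at 58.47, 81.79 and 85.97 CPM with vehicle and at 37.03, 55.95 and 71.02 CPM with CORT. Of the AS vehicle libraries, H13 to H16 were at 79.72 to 85.97 CPM and above all AS CORT libraries, and H17 and H18, at 58.47 and 67.14 CPM, were within their range. Igfbp4 fell in AS mice by -0.48 ± 0.128 log2 (1.39-fold, edgeR adjusted p = 0.0121) and was at -0.08 ± 0.126 in WT mice (adjusted p = 0.863). The interaction was -0.40 (adjusted p = 0.18), and none of the 9 members was called in that test, where 4.49% of all genes were. At an unadjusted p under 0.05 there was 1 member, beside 3443 of all 14611 genes.

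H17 and H18 share a property with the AS CORT libraries: these 8 hold 2640 to 2850 reads set aside for low alignment quality, and the other 16 hold 1877 to 2237. With this division as a covariate, Igfbp4 in AS mice was at -0.195 (adjusted p = 0.871), and among the 8 libraries alone at -0.20 (adjusted p = 0.705). No WT library is in the upper division, so that between AS and WT CORT mice the division and the genotype cannot be told apart. The clock gene Dbp also separated the AS CORT libraries, at 38.4 to 44.9 CPM, from the other 18, at 52.3 to 76.4 CPM. Arntl did not separate them, at 31.83 to 42.26 CPM in AS CORT and 28.8 to 47.94 CPM in the other 18 libraries. Of the marker lists, the 5 endothelial markers, all detected, summed to 135.9 to 163.8 CPM in AS vehicle and to 119.1 to 135.4 CPM in AS CORT libraries, which did not overlap, and to 107.2 to 165.1 and 127.7 to 174.9 CPM in WT mice. The 5 astrocyte markers summed to 1021 to 1176 CPM in AS vehicle (median 1104) and 1136 to 1251 CPM in AS CORT libraries (median 1217). The 6 neuronal markers summed to 13700 to 16270 CPM (median 15650) and 13630 to 15330 CPM (median 13900) in these groups. The part of Dbp and of these cells in the Igfbp4 values was not tested.

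Between the CORT-treated genotypes of the acute cohort, 3 of 9 members were lower in AS mice, beside 24.9% of all genes called in either direction. Igfbp4 was lower by -0.68 ± 0.128 log2 (edgeR adjusted p = 0.000723), Igfbp2 by -0.35 ± 0.105 (adjusted p = 0.0174) and Irs2 by -0.19 ± 0.067 (adjusted p = 0.0431). Igfbp2 was at 26.66, 28.99 and 32.05 CPM (lowest, median and highest of 6) in WT CORT and at 20.07, 22.02 and 25.71 CPM in AS CORT mice, groups that did not overlap. With vehicle it was at 21.24, 26.4 and 37.16 CPM in WT and 20.75, 22.31 and 29.11 CPM in AS mice, which overlapped. Irs2 was at 123.2, 163.3 and 177.7 CPM in WT CORT mice, where H8 is the low one and the other 5 are at 155.6 CPM or more, and at 123.4, 140.6 and 151.3 CPM in AS CORT mice. H8 also stood apart in the study's principal component analysis and was kept there. The 6 neuronal markers, all detected, summed to 14570 to 16990 CPM in WT CORT (median 15730) and 13630 to 15330 CPM in AS CORT libraries (median 13900), of which 5 of 6 were below all WT CORT ones; their part in the 3 values was not tested. With the division as a covariate Igfbp4 was at -0.27 (adjusted p = 0.938), Igfbp2 at -0.38 (adjusted p = 0.908) and Irs2 at -0.05 (adjusted p = 0.981). No gene tested passed in that fit, beside 3645 without the covariate. All AS CORT and no WT libraries are in the upper division, so that the term rests on the AS vehicle libraries alone. The missing calls in this fit therefore say nothing particular to the 3 members. The call of Irs2 was lost in 19 of 35 alternatives, 13 of which left out 1 library each (of H1, H2, H4, H6, H7, H9 to H12, H18 and H22 to H24), and those of Igfbp4 and Igfbp2 in 1 and 3 of 35.

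**Figure D5:**
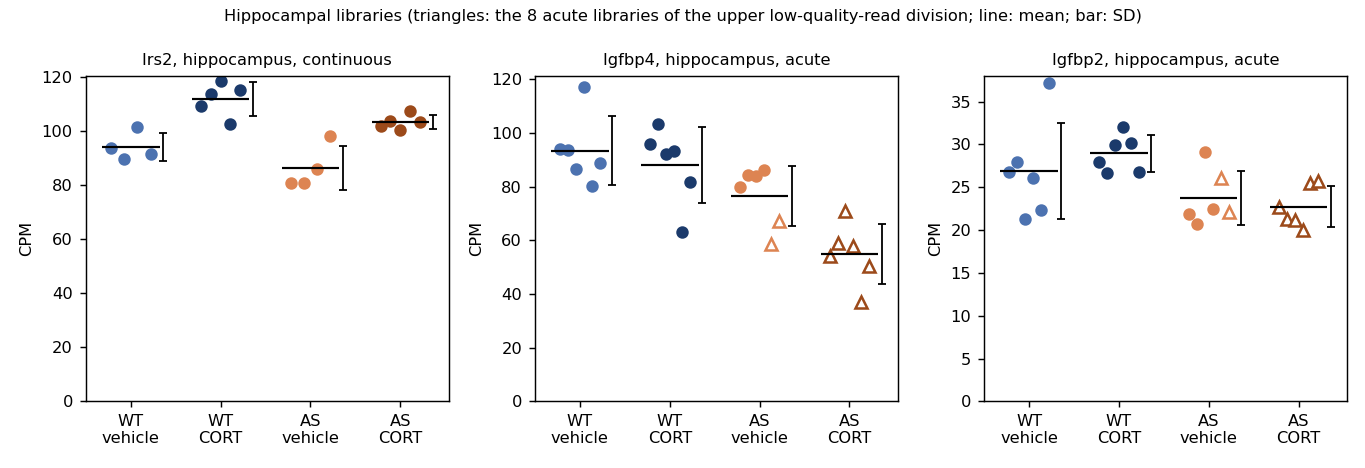
Irs2 in the continuous hippocampus, and Igfbp4 and Igfbp2 in the acute hippocampus, in CPM in every library, with the mean (line) and SD (bar); triangles mark the 8 acute libraries with the most low-quality reads. For Igfbp4, the 2 AS vehicle triangles (58.47 and 67.14 CPM) lie among the AS CORT triangles and below the 4 AS vehicle circles.

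Irs2 after the injection was at 129.5, 134.9 and 147.4 CPM (lowest, median and highest of 6) in WT vehicle and at 119, 133.1 and 134.6 CPM in AS vehicle mice. In 5 of 6 WT CORT libraries it was above all WT vehicle libraries. The effect was 0.22 ± 0.067 log2 for WT (adjusted p = 0.123) and 0.11 ± 0.0671 for AS mice (adjusted p = 0.256), which was not called in either. Without H8, the low library, the WT value passed. The remaining members lay between -0.08 and 0.23 log2 in WT mice and between -0.06 and 0.29 in AS mice, where the highest was Foxo1 (0.29, adjusted p = 0.115). With vehicle none of the 9 was called between the genotypes (0.157% of all genes called), and the 1 with an unadjusted p under 0.05, beside 1394 of all 14611 genes, was Igfbp4 at -0.29 (adjusted p = 0.461).

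Of 50 other genes of the insulin and IGF pathway, 44 were tested in liver. In WT livers 0 rose and 3 fell with CORT, beside 18.6% of all genes called, which were Pik3cd, a catalytic subunit of leukocyte phosphoinositide 3-kinase (-1.22), Socs3, an inhibitor of cytokine and insulin signalling (-0.94), and the mTOR inhibitor Deptor (-0.45). In AS livers, where 27.5% of all genes were called, 2 rose and 5 fell: the small GTPase Rheb of the mTOR pathway was among the higher (0.29), and Pik3cd (-1.23), the adaptors Sh2b2 (-1.05) and Grb10 (-0.85), Tsc1, a brake on mTOR (-0.44), and Igfbp7 (-0.43) were lower. The median of the list was -0.037 log2 in WT and 0.00164 in AS livers, and that of all genes -0.00473 and -0.00321. The Kupffer cell markers given above were lower in the same CORT livers, and their part in the values of Pik3cd was not tested.

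In the continuous hippocampus 1 of 43 tested pathway genes was called in WT mice, Igfbp7, which endothelial cells make, at -0.50, and 0 of 43 in AS mice, beside 2.92% and 3.77% of all genes. The medians of the list were 0.0152 and 0.0392 log2, and those of all genes 0.00338 and -0.00267. In the acute hippocampus Sh2b2 rose by 0.95 log2 in WT mice, as the 1 call of 44 beside 1.48% of all genes, and by 0.48 in AS mice. In AS mice, where 17.9% of all genes were called, 4 of 44 fell, the transcription factor Foxo6 (-0.73), the regulatory subunit Pik3r3 (-0.32), the kinase Gsk3a (-0.25) and the lipid phosphatase Inppl1 (-0.24). The medians of the list were -0.0243 in WT and -0.0178 in AS mice, and those of all genes -0.00226 and 0.00643. Between CORT-treated genotypes 2 of 44 were higher and 8 lower in AS mice, beside 24.9% of all genes called, with a median of -0.038 for the list and -0.000212 for all genes. Gsk3a was the 1 gene of the list past the interaction test (-0.34, adjusted p = 0.0423), which 4.49% of all genes passed, and the medians there were -0.0125 and 0.00726.

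Of 20 genes known as FOXO targets, all tested in liver, 4 rose and 0 fell with CORT in WT mice and 6 rose and 1 fell in AS mice, beside 18.6% and 27.5% of all genes called. Cdkn1a, an inhibitor of the cell cycle, rose by 3.52 and 3.22 log2 in WT and AS mice, Apoc3 by 0.99 and 1.09, and Mttp, needed for lipoprotein assembly, by 0.75 and 0.63. In AS mice Pck1, an enzyme of glucose production, rose by 1.72, Klf15 by 0.82, and Sesn1 fell by -0.41. The median of the list was 0.0295 and 0.0985 log2 in the WT and AS livers, where all genes had medians of -0.00473 and -0.00321.

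In hippocampus, of 17 tested FOXO targets, Cdkn1a, Klf15 and the lipase Pnpla2 rose in both genotypes and both cohorts. In the continuous cohort these were the 3 calls in WT mice, at 1.38, 0.51 and 0.47 log2, and Pdk4, Txnip and Bcl6 were added in AS mice, for 6 calls of 17, beside 2.92% and 3.77% of all genes. The medians of the list were 0.0945 and 0.0893 log2, against 0.00338 and -0.00267 over all genes. In the acute cohort the same 3 genes were the calls in WT mice, and in AS mice Pdk4 and Sesn1 rose as well and Srebf1 fell (-0.36), beside 1.48% and 17.9% of all genes called. There the list had medians of 0.000177 and 0.111 log2, and all genes -0.00226 and 0.00643. Between the acute genotypes 1 of 17 was called with vehicle, the cell cycle inhibitor Cdkn1b (-0.30, with a median of -0.136 for the list and -0.003 for all genes), beside 0.157% of all genes. With CORT 2 were higher and 2 lower in AS mice, the lower ones Pnpla2 (-0.51) and Srebf1 (-0.29), beside 24.9%, and in the interaction Srebf1 was called (-0.39), beside 4.49%. The medians of the list in these 2 tests were -0.0389 and 0.0824, and those of all genes -0.000212 and 0.00726. Several of these genes, such as Klf15, are also known as direct GR targets.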

How the data were processed

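Total RNA of hippocampus and liver was isolated by the authors and sent to BGI Genomics for RNA-seq (stranded mRNA libraries, paired-end reads of 100 bases, DNBseq). Per the labels and the study's methods, the authors ran the BioWDL pipeline, with FastQC and MultiQC for quality, STAR for alignment to mm10 and HTSeq for reads per gene, and deposited raw counts that were not normalized. Versions of the single tools, the annotation release and the strand setting of the counting are not given in the sources used here. Symbols came from GENCODE M21, for 52133 of 55414 IDs of the acute table and 55480 of 55573 of the continuous one. Rows that name no gene, 11.7% to 23.3% of reads, were left out of library sizes.

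Genes above 20 normalized counts in 3 or more libraries of any 1 group were fitted with edgeR's quasi-likelihood test (edgeR 4.0.16, R 4.3.3, TMM), with 1 coefficient for each of the 4 groups of a tissue and cohort, or for 8 groups when tissues were compared. Benjamini-Hochberg adjustment ran over all genes tested, with a threshold of 0.05. The SE of a log2 fold change was derived from the F statistic, 95% intervals are 1.96 SE to either side, and log2 fold changes carry a prior count, which lowers those of rare genes. The scripts were tested on simulated data. Alternatives used DESeq2 1.42.0, limma 3.58.1 and sva 3.50.0, among others.

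The 10 members and the gene lists were chosen with earlier results of these data known. All members are named, of the other lists at most 6 called genes by the smallest p for a comparison, of which 1 is not reported here, and for liver genes called in both genotypes the 3 genes with the highest correlation. Terms for clock genes and choroid plexus markers were added after the data were seen. No 2 libraries of a group were alike within sampling noise.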

Additional observations from a re-analysis of the deposited data

Results flagged for a closer look

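Within groups of 4 to 6 libraries, 10 member values of 112 groups tested lay further from the rest than Dixon's 95% criterion allows, and chance gives about 1 in 20. In liver these were Insr in the WT CORT library L5 (88.93 CPM), Pik3r1, Foxo3 and Igfbp4 in the AS vehicle library L2 (119.2, 57.97 and 1862 CPM), Foxo1 in the AS vehicle library L9 (26.61 CPM), Igfbp2 in the AS vehicle library L11 (890.9 CPM) and Igfbp4 in the WT CORT library L3 (1828 CPM). L2 and L3 are libraries of high Dbp. In hippocampus they were Igfbp3 in the AS vehicle library H2 of the continuous cohort (21.08 CPM), and in the acute cohort Foxo1 in the AS CORT library H23 (67.62 CPM) and Igfbp4 in the WT vehicle library H4 (117.2 CPM).

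The CORT effect differed between liver and hippocampus, by the test of the difference in edgeR, for Foxo1 (0.766 log2, liver minus hippocampus), Igfbp2 (-2.01) and Igfbp3 (-0.532).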

How the results depend on the processing

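The falls of liver Igfbp2 (-3.05 to -2.60 log2 in WT and -2.79 to -2.27 in AS mice) and the rises of Foxo1 (0.726 to 0.87) and Pik3r1 (0.656 to 1.1) in AS livers were called in all 31 alternatives, and hippocampal Igfbp2 in WT mice of the continuous cohort in all 32 (-1.79 to -0.607). Counts of members called moved by more than 1.5 times as follows, each with the number of all genes called under the same setting in parentheses, and no cause was tested. In WT livers 2 were called (2286), 4 with 1 surrogate variable (3233), 1 with only the groups compared (2116), 1 at an adjusted p under 0.01 (1336) and 5 without the 6 libraries of high Dbp (2355). In the continuous hippocampus of AS mice 1 was called (564), 3 with DESeq2 (762), 2 with no filter on low counts (555), limma-voom (872), only the groups compared (500), the choroid plexus covariate (631) or without H6 and H17 (547), and 0 at the stricter threshold (272) or with all 20 libraries (221). In WT mice of that set 2 were called (436), and 1 at the stricter threshold (178), with all 20 libraries (203), with the choroid plexus covariate (331) and without H6 and H17 (178). Between its vehicle genotypes 0 were called (2), and 1 without the 6 libraries of high Dbp (11). In the acute cohort, WT mice had 0 (216), and 1 with limma-voom (341), 1 surrogate variable (351) or without H8 (241). AS mice had 1 (2612), 2 with limma-voom (5056), 1 surrogate variable (2529) or GC and length offsets (2398), and 0 at the stricter threshold (929), with the low-quality-read division (150) or among its 8 upper libraries (198). The comparison of CORT-treated genotypes had 3 (3645), 1 with GC and length offsets (2706), 1 at the stricter threshold (1707) and 0 with the division (0), and the interaction had 0 (656), and 3 with limma-voom (3353). The tissue difference in CORT effect had 3 (3176), 6 with terms for high Dbp (3801) and 6 without the libraries of high Dbp in both tissues (2726). Values that changed sign were all uncalled: Igfbp1 in AS livers (0.482 with 1 surrogate variable), Igfbp1 in WT livers (-0.25 without the 6 libraries, and -0.141 to 0.385 leaving out 1 library), Igfbp3 in WT livers (-0.197 to 0.0398 leaving out 1 library) and Igfbp4 in acute WT mice (0.000873 without H8, up from -0.136 over all alternatives).

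Leaving out 1 library at a time gave 2 to 3 members called in WT livers (1821 to 2390 of all genes), 3 to 5 in AS livers (2803 to 3748), 1 to 2 and 0 to 2 in the continuous hippocampus of WT and AS mice (251 to 469 and 362 to 636), 0 to 1 between its vehicle genotypes (1 to 6), 0 to 1 and 1 to 2 in the acute hippocampus of WT and AS mice (160 to 241 and 1532 to 3497), 2 to 3 between its CORT-treated genotypes (2736 to 4173), 8 to 10 between tissues (14003 to 14280) and 2 to 5 for the difference in CORT effect (2851 to 3384). In the tests of CORT against vehicle, the calls over all genes moved by over 1.5 times without H12, H17 or H20 (277, 251 and 252) in the continuous WT and without H11 (362) in the continuous AS hippocampus, and without H14 or H15 (1532 and 1706) in acute AS mice. No member was called in any of these fits in the liver genotype tests, where the calls between CORT-treated livers ran from 12 to 63, nor in the acute interaction, where they ran from 0 without H14 to 1564 without H17. The same holds between the vehicle genotypes of the acute cohort (7 to 49 of all genes) and between the CORT-treated genotypes of the continuous hippocampus (1 to 16).

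With the mouse number as a replicate block across tissues, 10 members differed between tissues, Foxo3 added, and the CORT effects of the same 3 members differed, with 2513 calls over all genes in place of 3176. The sources used here do not say that equal numbers are 1 mouse, and deviations of equal-numbered libraries correlated at -0.0376 to 0.0421 over 18 numbers, of which 2 had their own number as the best match.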

Other observations

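Between CORT-treated genotypes of the acute cohort, where the low-quality-read division and the genotype cannot be told apart, Igf1r, the receptor of IGF1, was lower in AS mice (-0.34 log2, edgeR adjusted p = 0.00333), as was the transcription factor Foxo6 (-0.46, adjusted p = 0.0119), while Igfbp6, a binding protein with a preference for IGF2, was higher (0.53, adjusted p = 0.0131), and so was the kinase Rps6kb1 (0.30, adjusted p = 0.00631).

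Some hippocampal libraries had high Foxo1 together with low Igfbp4, an observation made after the values were seen. In the continuous cohort H4 (WT vehicle) held 65.12 CPM of Foxo1 and 40.85 of Igfbp4, and H14 (AS vehicle) 53.14 and 45.77. In the acute cohort H23 (AS CORT) held 67.62 and 37.03, and H8 (WT CORT) 66.71 and 62.9. The 5 thalamus markers summed to 121 CPM in H4 and 249 CPM in H14, above the 54.06 to 105.4 CPM of the other 16 libraries of that cohort, and to 93.16 CPM in H23 and 90.11 CPM in H8, within the 62.98 to 151.5 CPM of the acute cohort.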
